A study of Mus musculus with 6 samples.

Results

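The receptors for interleukin-12, interleukin-18, interleukin-10 and the interferons were followed through 3 subsets of mouse natural killer (NK) cells. The 10 genes were taken by name: Il12rb1, Il12rb2, Il18r1, Il18rap, Il10ra, Il10rb, Ifngr1, Ifngr2, Ifnar1 and Ifnar2. They are 10 of 18193 genes with a probe set of their own and are read by 18 of 45037 probe sets on Affymetrix mouse expression arrays. NK1.1+ cells came from the spleens of RAG-/- mice, in which the missing recombinase leaves no mature T or B cells. They were sorted by flow cytometry into CD27+CD11b- cells, CD27+CD11b+ cells and CD27-CD11b+ cells, commonly placed in this order as stages of NK maturation. Each subset had 2 arrays. All 3 subsets share the RAG-/- background and the NK1.1 gate, and neither age, sex nor treatment of the mice is given in the sources used here. The design calls the 2 arrays of a subset independent replicates but names no animals. The p-values therefore cover the spread among these arrays, and that spread may be technical.

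Each of these receptors is a pair of chains. Il12rb1 and Il12rb2 form the receptor for interleukin-12, which signals through the kinases Tyk2 and Jak2 to Stat4. Il18r1 binds interleukin-18, and Il18rap is the accessory chain that recruits the adaptor Myd88. Interleukin-12 and interleukin-18 together are the classical stimulus for interferon-gamma release by NK cells. Il10ra is the ligand-binding chain for interleukin-10, and Il10rb is a signalling chain shared with other cytokines of the family. Ifngr1 and Ifngr2 form the receptor for interferon-gamma, and Ifnar1 and Ifnar2 the receptor for type I interferons.

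Arrays were read as log2 RMA values. Array medians lay between 5.26 and 5.35, and precision is limited by having 2 arrays a subset. A level of 6.20 is called the background level here. It is the 95th percentile of the means of 45 genes of other tissues, and it was used because the table holds no detection calls. All 12 NK cell markers lay above it on every array, and 0 of 5 B cell markers did in any subset. Of the other lists, 3 of 8 T cell, 4 of 6 neutrophil, 2 of 5 dendritic cell and 5 of 6 other innate lymphoid cell markers lay above it in at least 1 subset. Cd27 averaged 8.41 ± 0.53 in CD27+CD11b- cells, 8.57 ± 0.50 in CD27+CD11b+ cells and 6.71 ± 0.35 in CD27-CD11b+ cells, and Itgam, which encodes CD11b, 6.13 ± 0.34, 8.35 ± 0.48 and 9.69 ± 0.34 in the same order (SD, n = 2 arrays each). The sort description of CD27-CD11b+ replicate 1 names the CD27+CD11b- gate, whereas its title names CD27-CD11b+. That array was grouped by its title, and its Cd27 of 6.96 and Itgam of 9.93 lay beside the 6.47 and 9.44 of CD27-CD11b+ replicate 2. The arrays also fall into 2 sets of 3 that cross the subsets. A group of 3 probe sets without a gene symbol averaged between 12.57 and 12.81 on the on arrays, which were replicate 2 of both CD27+ subsets and replicate 1 of CD27-CD11b+, and between 4.33 and 4.47 on the off arrays. Since each set holds 1 array of every subset, differences could be read within both. The mean of 22 monocyte and macrophage markers followed this division, between 7.06 and 7.43 on the on arrays and between 5.70 and 6.57 on the off arrays, as did that of 6 neutrophil markers, between 7.30 and 7.55 and between 6.02 and 6.72.

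Of the genes whose subset means spanned the widest range, Il12rb2 and Il18rap have promoter sequences in the RefSeq table used here (GRCm38.p6), and both are shown as the 250 bases before the annotated start. Capitals mark matches to the interferon-gamma-activated site TTCNNNGAA, which STAT dimers bind, and to the T-box core GTGTGA, bound by Tbx21 and Eomes, on either strand. The interferon-stimulated response element and the RUNX core TGTGGT were searched too, and no stretch matched more than 1 motif.
Il12rb2, chr6:67376189-67376438, minus strand: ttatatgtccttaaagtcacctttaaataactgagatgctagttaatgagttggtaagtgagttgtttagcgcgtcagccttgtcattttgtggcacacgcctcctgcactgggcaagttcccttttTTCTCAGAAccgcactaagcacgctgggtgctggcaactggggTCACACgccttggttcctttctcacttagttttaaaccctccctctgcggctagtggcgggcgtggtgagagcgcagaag
Il18rap, chr1:40515112-40515361, plus strand: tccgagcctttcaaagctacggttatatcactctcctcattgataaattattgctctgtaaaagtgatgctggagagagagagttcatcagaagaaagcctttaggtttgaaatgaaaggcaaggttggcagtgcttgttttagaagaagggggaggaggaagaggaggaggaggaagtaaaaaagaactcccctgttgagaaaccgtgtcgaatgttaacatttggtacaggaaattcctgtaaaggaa
The Il12rb2 window held 1 match to TTCNNNGAA and 1 to GTGTGA, motifs found in 7.02% and 12.3% of 32851 windows of this length in the table. The Il18rap window held 0 matches to any of the 4 motifs, of which the interferon-stimulated response element lies in 2.98% and TGTGGT in 14.0% of windows. Promoter windows were found for 7 of the 10 genes. Besides Il12rb2, matches to TTCNNNGAA stood before 1 of 3 Il18r1 starts and before Ifnar2, and no other window of these genes held a match to any motif. A match is a description of the letters and not a binding site. Il18r1 and Il18rap are neighbouring genes on chromosome 1, and Ifnar2, Il10rb, Ifnar1 and Ifngr2 follow one another on chromosome 16.

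CD27-CD11b+ cells were set against CD27+CD11b- cells to compare the ends of the order. The interleukin-10 binding chain Il10ra rose. It read 9.32 and 8.87 in CD27-CD11b+ cells, against 7.98 and 7.78 in CD27+CD11b- cells. Both values of the more mature cells lay above both values of the less mature cells. The log2 difference was 1.21 (SE 0.20, limma adjusted p = 0.0209), a 2.32-fold change with a 95% interval of 1.69 to 3.19. Il10ra was the 1 of 10 receptor genes that passed an adjusted p of 0.05, where 3.39% of all genes passed in either direction and 2.24% were higher and 1.15% lower. In bulk samples, more cells with the transcript and more transcript per cell cannot be told apart.

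**Figure D1:**
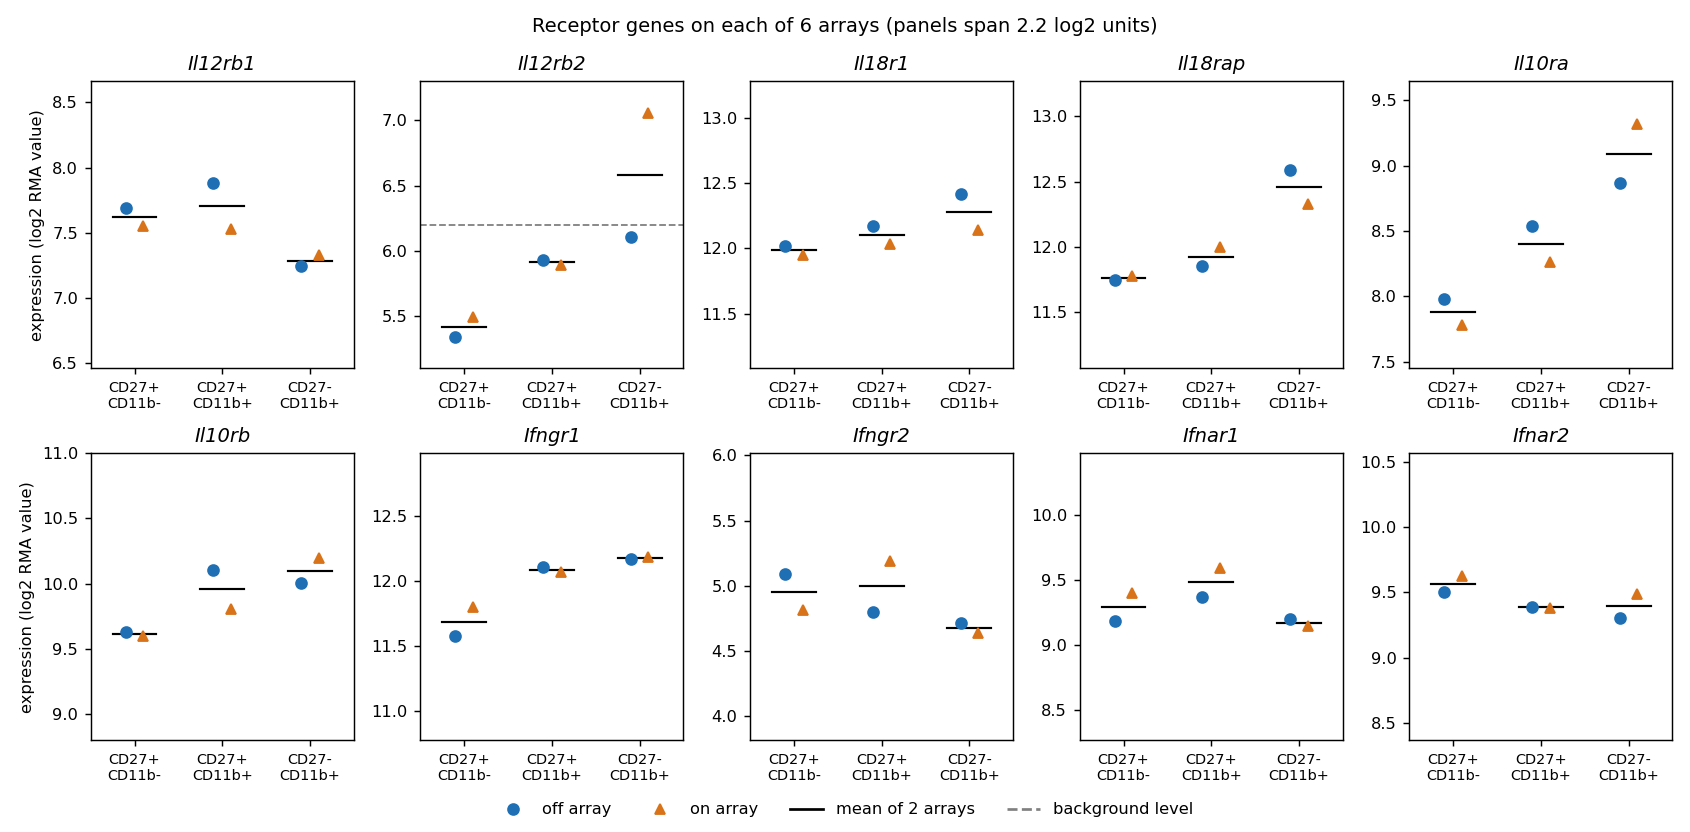
Expression (log2 RMA value) of the 10 receptor genes on each array, by subset, with the mean of 2 arrays as a bar, off arrays as circles and on arrays as triangles. Il10ra was higher on each CD27-CD11b+ array than on any other array, and Il12rb2 passed the dashed background level of 6.20 on 1 array.

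For Il10ra the intermediate CD27+CD11b+ cells read 8.54 and 8.26, between the other subsets and overlapping neither. The subset means were 7.88 ± 0.14 in CD27+CD11b- cells, 8.40 ± 0.19 in CD27+CD11b+ cells and 9.09 ± 0.32 in CD27-CD11b+ cells. Neither step passed on its own, at 0.52 (SE 0.20) for CD27+CD11b+ over CD27+CD11b- and 0.69 (SE 0.20, adjusted p = 0.248 in limma) for CD27-CD11b+ over CD27+CD11b+. The second step did not differ detectably from the first, at 0.17 with a 95% interval of -0.62 to 0.96. Between CD27-CD11b+ and CD27+CD11b- cells the difference was 0.89 within the off arrays and 1.54 within the on arrays. The call was lost without CD27-CD11b+ replicate 1, the array with the conflicting sort description, at a difference of 0.99 (limma adjusted p = 0.151), and without CD27+CD11b- replicate 1 (1.32, adjusted p = 0.0558) or CD27+CD11b- replicate 2 (1.11, adjusted p = 0.0843). It was also lost when limma was fitted and adjusted over all probe sets rather than 1 per gene (adjusted p = 0.0740) or 32 was added to the linear values (adjusted p = 0.0608).

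Macrophages also express Il10ra. Of 22 monocyte and macrophage markers measured, 17 lay above background in a subset. Their mean was 7.29 and 6.43 on the CD27-CD11b+ arrays, against 5.70 and 7.06 on the CD27+CD11b- arrays, and 0 of 22 passed the test. Of the 22, 19 were higher, with a median difference of 0.45. Within the on arrays the marker mean was 7.29 in CD27-CD11b+ cells and 7.06 in CD27+CD11b- cells, and within the off arrays 6.43 in CD27-CD11b+ cells and 5.70 in CD27+CD11b- cells. Their part in the Il10ra difference was not tested. Markers of other innate lymphoid cells moved with the same comparison. Their mean was 6.53 and 6.46 in CD27-CD11b+ cells, against 8.36 and 8.66 in CD27+CD11b- cells. All 6 were lower, and 4 of the 6 passed the test, where 1.15% of all genes passed as lower. The part of these markers in the Il10ra difference was likewise not tested.

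The partner chain Il10rb did not pass. It read 10.20 and 10.004 in CD27-CD11b+ cells, against 9.63 and 9.60 in CD27+CD11b- cells. All arrays of the more mature cells were higher, by 0.48 (SE 0.16, limma adjusted p = 0.163, 95% interval 0.11 to 0.86). A second, dimmer probe set gave 0.67 (SE 0.23). CD27+CD11b+ cells read 10.10 and 9.81 and overlapped CD27-CD11b+ cells.

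Il18rap, the accessory chain of the interleukin-18 receptor, came next by adjusted p. It read 12.33 and 12.59 in CD27-CD11b+ cells, against 11.75 and 11.78 in CD27+CD11b- cells. The groups did not overlap. The difference of 0.70 (SE 0.16, 95% interval 0.33 to 1.06), a 1.62-fold change, missed the threshold at a limma adjusted p of 0.0567. A second Il18rap probe set followed the same order, with means of 9.99 ± 0.13 in CD27+CD11b- cells, 10.52 ± 0.20 in CD27+CD11b+ cells and 10.96 ± 0.06 in CD27-CD11b+ cells, and differed by 0.97 (SE 0.16) between the ends. With all probe sets of each gene averaged, Il18rap passed (0.84, limma adjusted p = 0.0277) and Il10ra, which has 2 further probe sets below background, did not (0.35, adjusted p = 0.332). CD27+CD11b+ cells read 11.85 and 12.001 on the main Il18rap probe set, above CD27+CD11b- cells and below CD27-CD11b+ cells.

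The interleukin-18 binding chain Il18r1 did not pass. It read 12.02 and 11.95 in CD27+CD11b- cells, 12.17 and 12.04 in CD27+CD11b+ cells and 12.14 and 12.41 in CD27-CD11b+ cells. The CD27-CD11b+ arrays overlapped those of CD27+CD11b+ cells and lay above those of CD27+CD11b- cells. Between the ends it differed by 0.29 (SE 0.16, limma adjusted p = 0.369), with a 95% interval of -0.07 to 0.66 that lies inside a 2-fold change either way. Whether the Il18rap and Il18r1 differences differ from each other was not tested.

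Neither chain of the interleukin-12 receptor passed in any comparison. Il12rb2, which recruits Stat4, read 5.34 and 5.49 in CD27+CD11b- cells, 5.93 and 5.89 in CD27+CD11b+ cells and 7.06 and 6.10 in CD27-CD11b+ cells. Replicate 1 of CD27-CD11b+ was the only array above background. The difference between the ends was 1.16 (SE 0.28) with a limma adjusted p of 0.0683. The CD27-CD11b+ mean of 6.58 ± 0.68 lay 1.30-fold above the background level. It did so only through replicate 1, since replicate 2 at 6.10 was below that level. The 1.30-fold is therefore no lower bound for the subset. Without CD27-CD11b+ replicate 1 both subsets lay below background and no fold can be read (adjusted p = 0.220). Without CD27-CD11b+ replicate 2 the fitted difference was 1.64. Within the off arrays both values were below background, and within the on arrays the difference was 1.57. Both differences rest on the 1 array above background and start from CD27+CD11b- values below it, so their size cannot be read as a fold.

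Il12rb1, the chain shared with the interleukin-23 receptor, read 7.33 and 7.25 in CD27-CD11b+ cells, against 7.88 and 7.53 in CD27+CD11b+ cells. These arrays did not overlap, and the difference was -0.42 (SE 0.17, limma adjusted p = 0.415). CD27+CD11b- cells read 7.69 and 7.55. The ends differed by -0.34 (95% interval -0.72 to 0.05, adjusted p = 0.331), and neither difference passed.

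The interferon-gamma receptor chain Ifngr1 read 12.10 and 12.07 in CD27+CD11b+ cells, against 11.57 and 11.80 in CD27+CD11b- cells. The groups did not overlap, and the difference was 0.40 (SE 0.15, unadjusted p = 0.0288 in the limma fit across all genes), which did not pass after adjustment. CD27-CD11b+ cells read 12.18 and 12.16, which is 0.09 above CD27+CD11b+ cells (95% interval -0.26 to 0.43) and 0.49 above CD27+CD11b- cells (SE 0.15, adjusted p = 0.132). The other chain, Ifngr2, was below background in every subset on both of its probe sets. Its brighter probe set ranged from 4.64 to 5.19 over the 6 arrays, so neither the size nor the sign of its differences is read. It stays in the figures, in the counts over the 10 genes and in the refits.

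Neither chain of the type I interferon receptor passed in any comparison. Ifnar1 read 9.19 and 9.40 in CD27+CD11b- cells, 9.37 and 9.59 in CD27+CD11b+ cells and 9.15 and 9.20 in CD27-CD11b+ cells. Between the ends it differed by -0.12 (95% interval -0.49 to 0.25). A dimmer Ifnar1 probe set gave 0.43 (SE 0.27), of opposite sign, and the difference between the probe sets was not tested. Ifnar2 read 9.50 and 9.63 in CD27+CD11b- cells, 9.39 and 9.38 in CD27+CD11b+ cells and 9.49 and 9.31 in CD27-CD11b+ cells. Its difference between the ends was -0.17 (95% interval -0.51 to 0.17) on the probe set used and 0.05 and 0.04 on the others. For both genes the intervals exclude a 2-fold change between any 2 subsets, on the probe sets used.

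**Figure D2:**
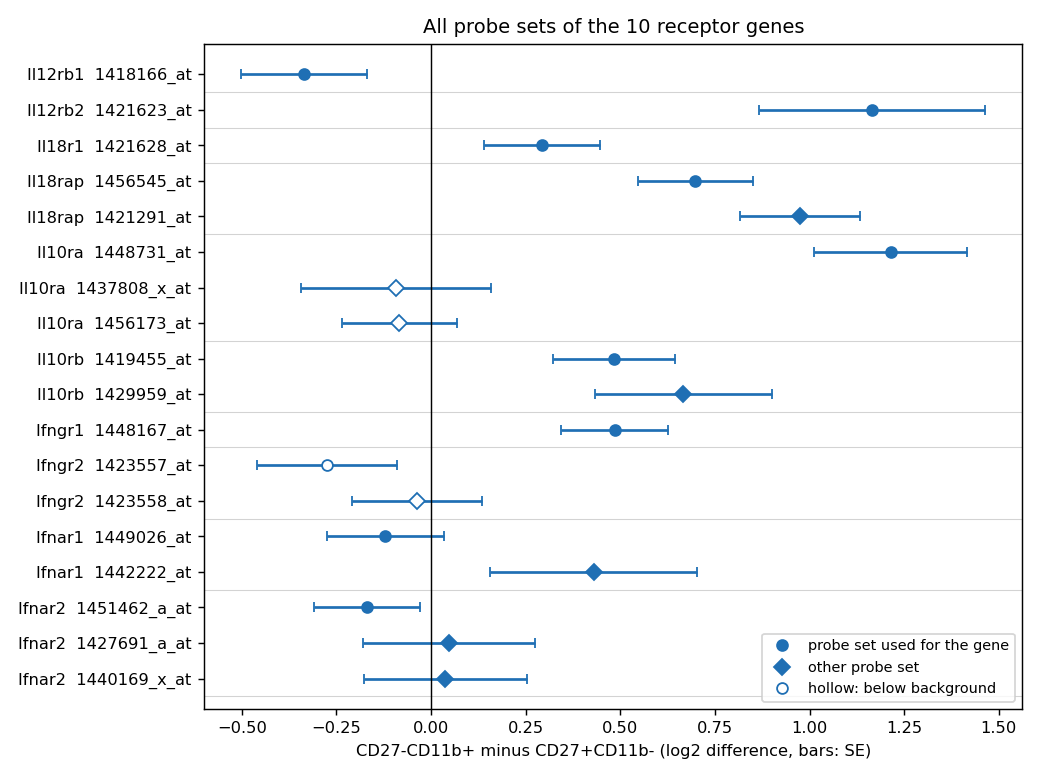
Log2 difference of CD27-CD11b+ minus CD27+CD11b- cells, with its SE, for each of the 18 probe sets, hollow where below background. The 2 Il18rap and the 2 Il10rb probe sets lie on the positive side together. Those of Ifnar1, Ifnar2 and Il10ra fall on both sides of 0. For Il10ra the probe set used gave 1.21, and 2 others, both below background, gave -0.09 and -0.08.

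Over all 10 genes, 0 passed for CD27+CD11b+ over CD27+CD11b- cells and 0 for CD27-CD11b+ over CD27+CD11b+ cells, where 0.121% and 0.297% of all genes passed. Arrays were higher without overlap in 6 of the 10 and lower in 1 for the first of these comparisons, shares that were 14.7% and 15.6% over all genes, and higher in 4 and lower in 3 for the second, against 22.8% and 17.1%. An unadjusted p under 0.05 was reached by 2 and 4 of the 10 in the limma fit, and by 3.79% and 11.1% of all genes. For the ends of the order, 7 of 10 intervals lay inside a 2-fold change either way, the exceptions being Il10ra, Il12rb2 and Il18rap. The median difference of the 10 was 0.39 between the ends, against -0.0055 over all genes. Arrays were higher without overlap in 6 of 10 genes and lower in 3 (Il12rb1, Ifnar2 and the below-background Ifngr2), shares that were 26.9% and 24.3% over all genes. The 9 genes without overlap keep the sign of that difference within both the off and the on arrays by necessity, so this is no separate check. The overlapping gene, Ifnar1, did not keep its sign. An F test over the 3 subsets passed 0 of the 10 and 1.35% of all genes, with 5 of the 10 and 13.6% of all genes at an unadjusted p under 0.05. The test of the second step against the first passed 0 of the 10, and 0 of the 10 had an unadjusted p under 0.05 there, against 3.01% of all genes. It passed 0.0055% of all genes.

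**Figure D3:**
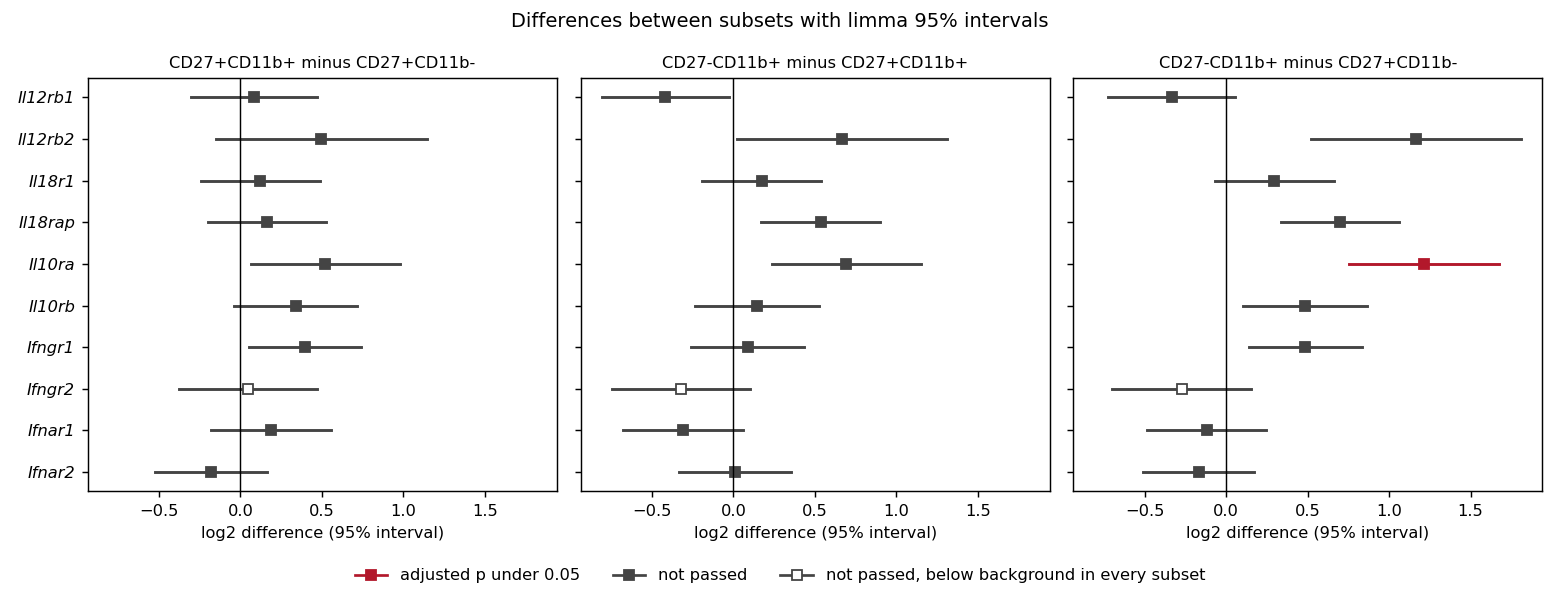
Log2 differences of the 10 receptor genes in the 3 comparisons, with limma 95% intervals, in red where the adjusted p was under 0.05. Il10ra between CD27-CD11b+ and CD27+CD11b- cells, at 1.21, is the only red point, and hollow squares mark Ifngr2, which was below background.

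With the off and on sets as a block, 3 of the 10 passed between the ends: Il10ra (limma adjusted p = 0.00950), Il12rb2 (adjusted p = 0.0201) and Il18rap (adjusted p = 0.0327). In that fit 8.13% of all genes passed and 5.3% were higher. Its F test over the 3 subsets passed 1 of the 10, Il10ra, and 4.8% of all genes. The division was read from the data, so these p-values may be too small.

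The kinases and transcription factors below the receptors were read in the same fit. Between CD27-CD11b+ and CD27+CD11b- cells, 2.24% of all genes passed as higher and 1.15% as lower. Of 12 kinases, adaptors and STATs, 1 rose and 0 fell. It was Tyk2, a kinase bound to the receptors for interleukin-12, interleukin-10 and type I interferon, at 10.63 and 10.64 in CD27-CD11b+ cells, against 9.74 and 9.75 in CD27+CD11b- cells (difference 0.89, SE 0.14, limma adjusted p = 0.0195). Jak2, which pairs with Il12rb2 and Ifngr2, read 9.94 and 9.89 in CD27-CD11b+ cells, against 10.48 and 10.56 in CD27+CD11b- cells (-0.60, adjusted p = 0.0624). Neither Jak1 (0.47, adjusted p = 0.161), Stat3 (-0.65, adjusted p = 0.430) nor Stat2 (0.10, adjusted p = 0.779) passed. Stat4, named after its values were seen, averaged 11.45 ± 0.04 in CD27-CD11b+ cells and 11.44 ± 0.22 in CD27+CD11b- cells. The list's median was 0.11.

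Among 10 negative regulators, 2 fell and 8 did not pass, where 1.15% of all genes passed as lower. Socs3, the feedback inhibitor best known for cytokines that signal through Stat3, read 11.25 and 10.64 in CD27-CD11b+ cells, against 11.99 and 12.26 in CD27+CD11b- cells (-1.18, SE 0.24, limma adjusted p = 0.0405). Socs2 read 5.86 and 6.86 in CD27-CD11b+ cells, against 8.46 and 7.94 in CD27+CD11b- cells (-1.85, adjusted p = 0.0316). The 5.86 lay below the background level of 6.20, which limits how far the size of this fall can be read. The inhibitor of cytokine signalling Cish (-1.101, adjusted p = 0.0668) and the deconjugase Usp18 (-0.53, adjusted p = 0.114), which binds Ifnar2, did not pass, nor did Pias1 (0.36), and Socs1 was below background in all subsets. The list's median was -0.07.

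Interferon response genes gave 3 falls and 0 rises among 18 measured, where 1.15% of all genes passed as lower and 2.24% as higher. The list's median was -0.17, against -0.0055 over all genes. Ifit1, an RNA-binding antiviral protein, read 5.72 and 5.60 in CD27-CD11b+ cells, against 6.93 and 7.28 in CD27+CD11b- cells (limma adjusted p = 0.00927). Since it was below background in CD27-CD11b+ cells, it was at least 1.87-fold lower there. Rtp4, a chaperone-like protein induced by interferon, read 7.98 and 8.05 in CD27-CD11b+ cells, against 9.10 and 9.11 in CD27+CD11b- cells (-1.09, adjusted p = 0.00863). Ifit3, of the same family as Ifit1, read 6.91 and 7.001 in CD27-CD11b+ cells, against 7.88 and 8.02 in CD27+CD11b- cells (-0.99, adjusted p = 0.0454). Mx1 (0.50), Irf7 (0.23) and the interferon-inducible GTPase Igtp (-0.49) did not pass, and Oasl2 was below background in all subsets.

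**Figure D4:**
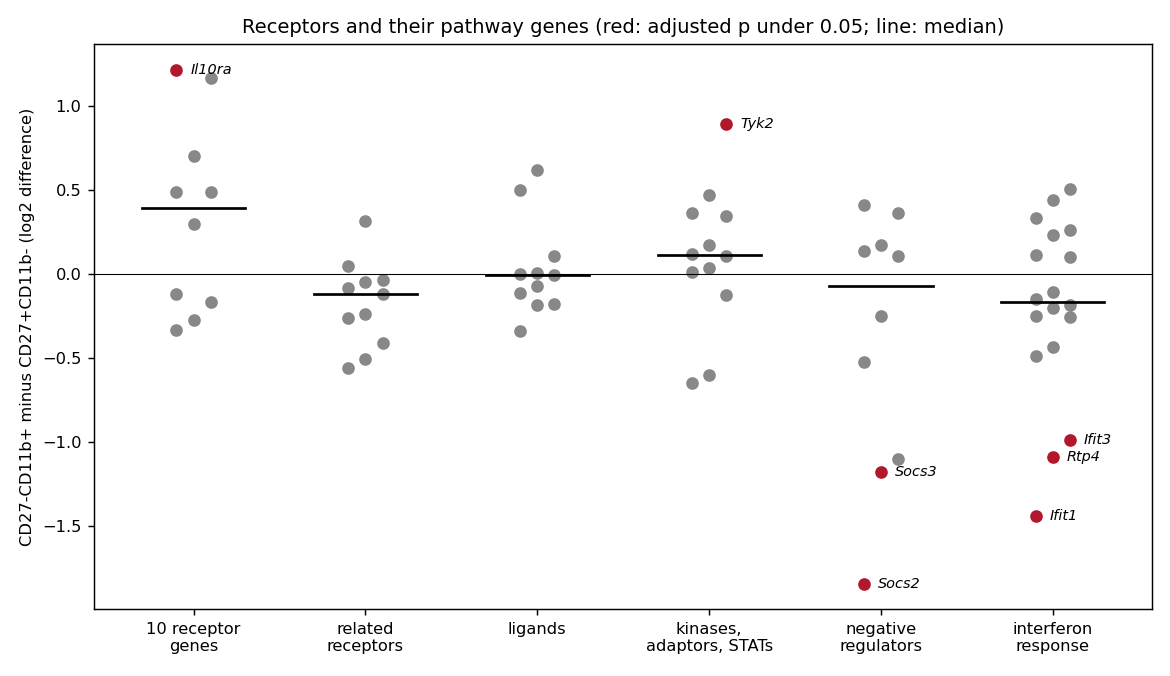
Log2 difference of CD27-CD11b+ minus CD27+CD11b- cells for the 10 receptor genes and 5 pathway lists, with medians as lines and genes at an adjusted p under 0.05 in red. Tyk2 and Il10ra lie above 0 among the red points, and Socs2, Socs3, Ifit1, Rtp4 and Ifit3 below.

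Among 11 measured receptors related to these by chain or family, 0 passed in either direction and the median was -0.12. Only 3 of the 11 lay above background in a subset. Il27ra, of the interleukin-27 receptor, was -0.51 between the ends (limma adjusted p = 0.171). Il20ra, Il6st and Il1rl2 were below background in all subsets. Of 11 ligands and binding proteins, 0 passed, with a median of -0.0084. Ifng, the interferon-gamma gene, read 12.81 and 12.50 in CD27-CD11b+ cells, against 11.91 and 12.18 in CD27+CD11b- cells (0.62, adjusted p = 0.104). Il18 was below background in CD27-CD11b+ cells and overlapped CD27+CD11b- cells (adjusted p = 0.760), and Il10 and Il12b were below background in all subsets. None of the 5 lists had a member past the test for CD27+CD11b+ over CD27+CD11b- cells or for CD27-CD11b+ over CD27+CD11b+ cells in limma. The genes of these lists were chosen with earlier results of these data known, and nothing particular to a list is read from its count.

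The genes most like Il10ra over the 6 arrays were Taf3, Gypc and Panx1, with Pearson correlations of 0.999, 0.998 and 0.998 among 2420 genes above background that spanned at least 0.5. For Il12rb2 they were Niban2, Cdpf1 and Tmem185b (0.997, 0.995 and 0.994), and for Il18rap Fbxo38, Foxn3 and Fcsk (0.991, 0.989 and 0.988). The 6 points are 3 pairs that share a subset, and the correlations are descriptions. Il12rb2 was above background only in CD27-CD11b+ replicate 1, so its correlations rest on that array and on values below background.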

How the data were processed

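Values were log2 signals of 45101 probe sets on 6 arrays as deposited. The submitters' processing notes name RMA, with neither a version nor a chip definition. RMA equalises arrays, so a change shared by most genes is removed, and it compresses differences of dim genes. After 64 controls were left out, 34945 probe sets had 1 gene symbol in the array annotation, 932 several and 9160 none. Each of 18193 genes was read on its probe set with the highest mean, and identifiers of 34741 probe sets were found in the RefSeq gene table. Probe set names ending in _a_at or _x_at (Ifnar2, Il10ra) may match further transcripts. limma 3.58.1 in R 4.3.3 fitted 1 mean per subset over all 6 arrays (3 residual and 4.93 prior degrees of freedom), with Benjamini-Hochberg adjustment over all genes. The fit was run on simulated data with independent noise on each array and changes only in genes at or above the median level. That run does not cover dim genes or the division into off and on arrays. Named beyond the 10 receptors were called list members, up to 4 others per list with the largest absolute difference in any of the 3 comparisons, the sorting markers and the 3 genes most like each of the 3 receptors with the widest range. The members and lists were chosen with earlier results of these data known. Listed genes without a probe set of their own are not analysed here. Alternatives changed the probe set rule, filter, centring, offset, prior variance, arrays in the fit and blocks, and left out each array.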

Additional observations from a re-analysis of the deposited data

How the results depend on the processing

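Of 447 refits of the 30 receptor differences, 426 kept their direction and side of the threshold, 8 gained a call, 6 lost one (all Il10ra between the ends of the order) and 7 changed sign, none of them a called value. The signs that changed were those of Ifngr2 for CD27+CD11b+ over CD27+CD11b- (0.05) and Ifnar1 for CD27-CD11b+ over CD27+CD11b- (-0.12), which became -0.0695 and 0.1545 with the probe sets of a gene averaged, and 5 more with 1 array left out. For CD27+CD11b+ over CD27+CD11b- cells, Il12rb1 was -0.0923 without CD27+CD11b+ replicate 1 (0.26 at most), and Ifngr2 was -0.0919 when CD27+CD11b- replicate 2 was left out, -0.1489 when CD27+CD11b+ replicate 2 was, and 0.24 at most. For CD27-CD11b+ over CD27+CD11b+ cells, Il10rb was -0.0019 without CD27+CD11b+ replicate 2 (0.29 at most) and Ifnar2 -0.0798 without CD27-CD11b+ replicate 1 (0.101 at most).

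Between CD27-CD11b+ and CD27+CD11b- cells 1 receptor gene was called. It was 0 with all probe sets fitted and adjusted together, which changes the prior variance and the number of tests at once, or with 32 added, 2 with only genes above background, median centring or a trend in the prior variance, and 0 to 2 with 1 array left out. It was 0 without either CD27+CD11b- array or CD27-CD11b+ replicate 1. It was 2 (Il10ra and Il12rb2) when CD27-CD11b+ replicate 2 was left out. For pairing, deviations of same-numbered arrays from their subset means correlated at 0.622 between the CD27+ subsets and at -0.139 and -0.249 with CD27-CD11b+ cells, so the numbers were not used as pairs. With the replicate block 2 were called, and 1 in the F test. With the off and on arrays as a block, which is the crossed pairing of the replicate numbers, 3 were called and 1 in the F test, where the count was 0 with no block and 0 to 1 with 1 array left out (Il12rb2 when CD27-CD11b+ replicate 2 was). The mean of all probe sets also gave 1, but that gene was Il18rap. The totals over all genes between the ends differed among these settings too. They were 693 of 9098 with only genes above background, 690 of 18193 with median centring and 596 of 18193 with the trend. A count of receptors is therefore not read as particular to them. The causes were not tested.

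Over all genes, 22 were called for CD27+CD11b+ over CD27+CD11b- cells, 11 with probe sets averaged, 0 with all probe sets fitted together, 0 with 32 added, 12 with only those 2 subsets, 58 with the off and on block and 4 to 30 with 1 array left out (4 and 5 without CD27+CD11b+ replicates 1 and 2, 10 without CD27+CD11b- replicate 2, 12 without either CD27-CD11b+ array). For CD27-CD11b+ over CD27+CD11b+ cells 54 became 10, 11 and 296 with all probe sets fitted together, 32 added and the off and on block, and 6 to 53 with 1 array left out (13 and 11 without CD27+CD11b+ replicates 1 and 2, 6 and 25 without CD27-CD11b+ replicates 1 and 2). Between the ends 617 became 168, 367 and 1480, and 84 to 635 (236 and 296 without CD27+CD11b- replicates 1 and 2, 84 and 230 without CD27-CD11b+ replicates 1 and 2). In the F test 246 became 57, 55 and 874, and 53 to 237 (53 and 90 without CD27-CD11b+ replicates 1 and 2, 137 with CD27+CD11b- replicate 2 left out). The replicate block gave 19, 58 and 760 calls in the 3 comparisons. A lone array left in a subset is assumed to vary like the others. Dim genes such as Ifngr2 and Il12rb2 limit what can be read.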
